A study of Prunus dulcis and Malus domestica and Olea europaea with 8 samples.

Results

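The miRNA profile of pear fruit (Pyrus communis) was compared with the profiles of 7 other plant foods. The pear library was 1 of the 8 small RNA libraries in the series and was taken as labelled, namely RNA from the edible portion of pears bought at a supermarket. The study sequenced such libraries to find out which miRNAs plant foods contain. The other foods were apple (Malus domestica), almond (Prunus dulcis), orange (Citrus sinensis), tomato (Solanum lycopersicum), spinach (Spinacia oleracea), walnut (Juglans regia) and olive (Olea europaea). Each food gave 1 library of its edible portion, with no treatment named in the labels. Pear and apple belong to the Rosaceae, as do almond and peach, whose genome served to place the reads of every food. The table holds only miRNA genes, so the label pear could not be checked against any other marker. Each food is a different species with 1 library, so a difference between 2 foods in this text is a difference between 2 libraries. Dixon's test was used only to flag shares that stand apart from the rest. No other test between foods was run, since 1 library against 7 cannot give a permutation p below 0.125. The intervals given are exact 95% ones, by Clopper and Pearson for a share and by the conditional binomial for a ratio of shares. They cover the counting error alone, and since no molecular identifiers were used, reads copied in PCR count separately in them.

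Plant miRNAs are cut from hairpin precursors by DICER-LIKE1 and loaded onto ARGONAUTE1, and they mostly cleave mRNAs to which they are nearly fully complementary. Many of the old families repress transcription factors that set organ shape, growth and ripening, and others answer to the supply of copper, sulfate or phosphate. Younger families, which carry the higher numbers, are often limited to 1 plant order, and several are known mainly from the Rosaceae.

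The mature sequences of the study's 2 candidate miRNAs are shown because the pear counts of their genes lay far apart. The capitals mark the seed, bases 2 to 8 from the 5′ end.
miR482c-5p: gGAAUGGGcuguuugggaug
miR482f: uCUUUCCUacuccacccauucc
The first is 20 nt long and comes from MIR482c (peach NCBIv2, G3:16316472-16316592, + strand), which had 7818 counts in pear. The second is 22 nt long and comes from MIR482f (G1:30625526-30625670, + strand), which had 3 counts in pear. Their seeds differ, but the first 8 bases of miR482c-5p equal the reverse complement of the last 8 bases of miR482f. The count of MIR482c sums both arms of its hairpin, so the part of miR482c-5p in it is not known.

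The pear library held 108997 counts on miRNA genes, and the other 7 libraries held between 39249 and 212021. In pear, 105 of the 209 annotated genes had at least 1 count, 79 had at least 3 counts, 58 had at least 10 and 42 had at least 30. The profile was steep: 9 genes made up 90% of the pear counts, and the 3 highest genes (MIR162, MIR159 and MIR396) held 63.9%. MIR162 alone had 49837 counts, a share of 45.7%, so the shares of all other pear genes were also computed with MIR162 taken out of every library, which left 59160 counts in pear. The 17 genes of ranks 4 to 20 held 34.1% of the pear counts, and all genes below rank 20 together held 2196 counts or 2.02%. A share here is the count of a gene or family in percent of all miRNA counts of its library.

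Of the genes with at least 10 counts in some food, 114 in all, 25 had at least 10 counts in pear and a pear share at least 4-fold above the median of the other 7 foods (21.9%). A pear share at least 4-fold below that median was found for 12 genes (10.5%). For these folds, a count under 3 was set to 3 counts in every library. The same rules applied to each other food in place of pear called between 15 (spinach, 13.2%) and 42 genes (almond, 36.8%) as higher, so the pear numbers lay inside the spread of the foods. Summed over families, 11 of 51 were at least 4-fold higher in pear (21.6%) and 3 were at least 4-fold lower (5.88%), and 4 to 6 were lower when apple (5), almond (5), orange (5), tomato (6), spinach (4), walnut (4) or olive (5) was left out. With MIR162 taken out, 32 of 113 genes were called higher (28.3%) and 5 lower (4.42%). Pear had the highest MIR162 share of all foods, so taking MIR162 out raised every pear fold. The 24 higher genes other than MIR162 therefore had to keep their call, and the 5 lower genes had to be among the 12. This agreement does not test the calls. The median log2 fold over the tested genes was -0.59 with all counts, with 49 genes higher and 65 lower in pear, and 0.14 with MIR162 taken out, with 73 higher and 40 lower. Folds near 1 therefore had no fixed direction. Some calls also sat close to the limit, a log2 fold of 2. MIR166b, at 2.08, was at 1.84 without apple, almond or orange, and the miR160 family, at 2.11, was at 1.72 without any of these and at 1.86 without olive. The miR2111 family, at 2.03, fell under the limit without apple, orange, tomato or olive, the lowest value being 1.95.

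A stricter rule asked that the lower limit of the pear share exceed the upper limit of every other food. It held for 10 genes (8.77%) and for 4 families, miR162, miR399, miR7125 and miR6284 (7.84%). By the same rule, between 3 genes (spinach) and 29 genes (almond) of another food were above all the rest, and pear again lay inside this spread. Leaving a food out can only make this rule easier to meet, so it could not test these calls. Under every scaling tried, 2 of the 10 genes (MIR7125 and MIR169_2) and 1 of the 4 families (miR7125) kept the call.

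**Figure D1:**
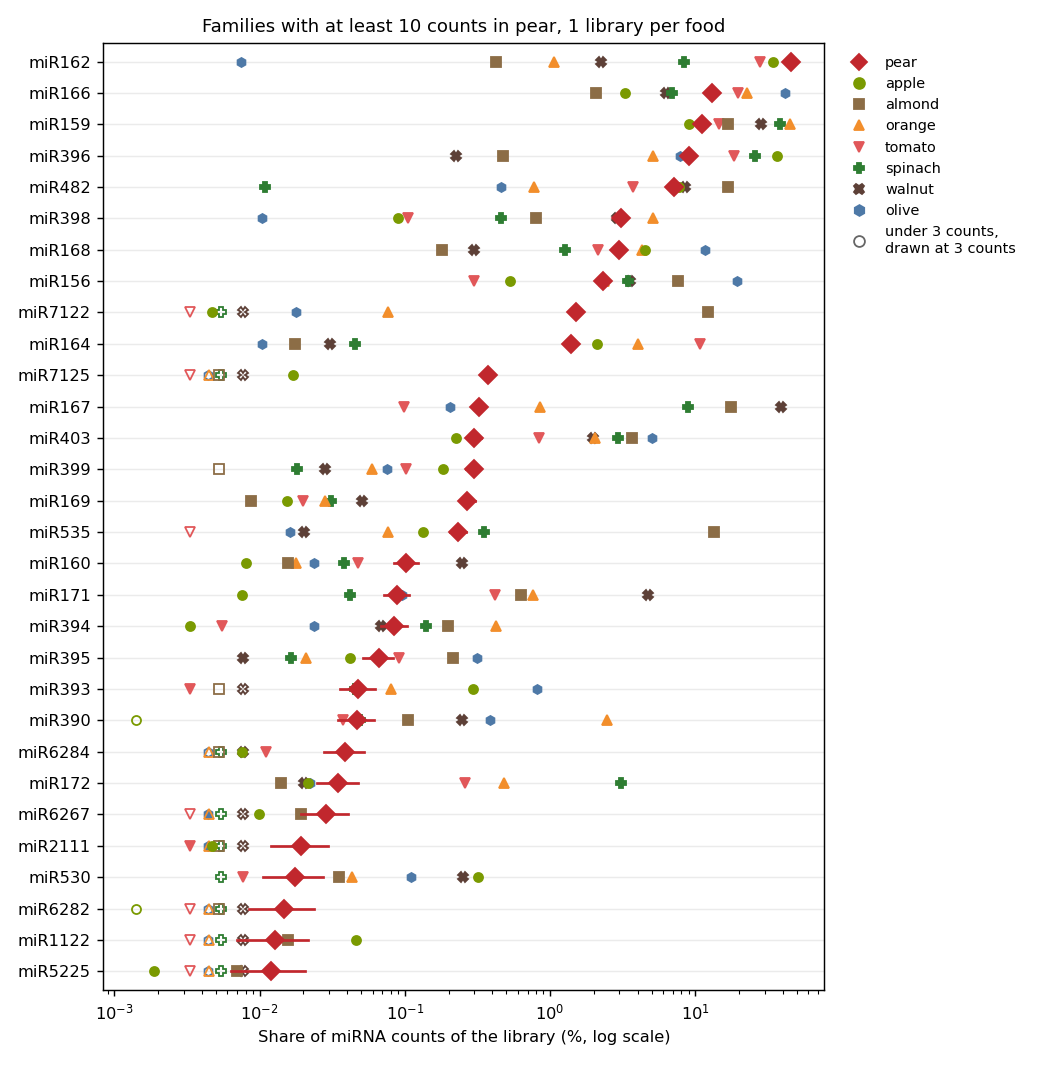
Share of the miRNA counts (percent, log scale) of each of the 30 families with at least 10 counts in pear, with pear as red diamonds (bar: 95% interval) and the 7 other foods as other symbols. Pear lies to the right of all other foods with clear intervals for miR162, miR7125, miR399 and miR6284, whereas miR403 and miR171 lie in the lower part of the range.

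The families that regulate the small RNA pathway itself held 49.0% of the counts in pear (95% CI 48.7 to 49.3), against a median of 12.6% and a highest share of 38.8% (apple) in the other foods. Most of this was miR162, which cleaves the DICER-LIKE1 mRNA. Its share was 45.7% in pear, against 34.1% in apple, 27.9% in tomato, 8.37% in spinach and at most 2.25% in the remaining foods. Pear was above the range of the other foods in shares and in the deposited normalized reads, but not under edgeR TMM, recomputed DESeq2 size factors or a denominator without the 3 highest genes of each library. miR168, which targets ARGONAUTE1, held 2.98% in pear (3252 counts), in the middle of the foods (0.181% in almond to 11.7% in olive). miR403, which targets ARGONAUTE2, went the other way. Its share was 0.301% in pear (328 counts, 95% CI 0.269 to 0.335), against 0.224% in apple and 0.845% to 5.03% in the other 6 foods. The pear share of miR403 was thus 0.148 times the median of the others, and 0.269 times with MIR162 taken out, which is short of the 4-fold limit. With MIR162, the only gene of its family, taken out, miR168 and miR403 together held 6.05% in pear. The median of the other foods was 4.57%, and pear was inside their range.

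Among the regulators of development, miR166, which restrains the HD-ZIP III factors of leaf and vessel patterning, held 13.1% of the pear counts. The other foods ran from 2.08% in almond to 41.5% in olive, with a median of 6.88%. miR159, which targets GAMYB-type factors, held 11.2% in pear, and apple (9.07%) was the only food below it. miR396, which targets growth-regulating factors, held 9.12% in pear, 0.227% in walnut and 36.6% in apple. None of these 3 families was called, and the sign of each log2 fold over the median depended on the scaling.

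miR164, which targets NAC factors of organ boundaries and of fruit ripening, split the foods into high and low ones. Its share was 1.39% in pear (1517 counts), against 10.7% in tomato, 4.05% in orange and 2.12% in apple. In spinach, walnut, almond and olive it was 0.0455% or less, with 7 to 25 counts. Tomato, orange and apple thus lay above pear, and olive was the one fruit among the low foods. The 30.6-fold excess over the median rested on that split. The log2 fold of 4.93 fell to 0.36 without almond, walnut or olive and to 0.37 without spinach, and was 5.19 without apple, orange or tomato. Nearly all of the pear counts, 98.3%, were on MIR164a.

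miR169, which targets NF-YA subunits of a CCAAT-binding factor, had 294 counts in pear, a share of 0.270% (95% CI 0.240 to 0.302). In the other foods it had 182 counts in olive, a share of 0.269%, and 5 to 33 counts with shares of at most 0.0510% in the rest. Pear and olive did not differ beyond counting error in the family sum, but their counts lay on different copies. MIR169_2 (ENSRNA050003201) took 270 of the 294 counts in pear, against 0 in olive, where 87.4% were on MIR169b. Apple had 24 counts of the same MIR169_2 and no other food had more than 2. This gene overlaps MIR169_5 on the opposite strand, which had 22 counts in pear, and reads were counted with regard to strand.

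The miR156 and miR535 families both target SPL factors, which set the juvenile-to-adult change and fruit development. miR156 held 2.32% in pear, against a median of 3.46% in the others and 19.2% in olive, so the family did not stand out. One of its copies did in shares: MIR156c had 0.293% in pear, against 0.207% in almond, 0.172% in olive, 0.0113% in apple and no count in the other 4 foods. For this copy pear was not above the range of the others in the deposited normalized reads or under TMM. miR535 held 0.233% in pear and 13.4% in almond. miR171, which targets GRAS factors of the shoot meristem, had 96 counts in pear (0.0881%), against 16 in apple (0.00755%) and 1857 in walnut (4.73%). Its log2 fold of -2.24 became -1.54 without almond, orange or walnut, so the call of lower in pear rested on each of these libraries. It was also lost with MIR162 taken out (-1.83), in the deposited normalized reads (-1.44), under TMM (-1.39) and with poscounts (-1.28) or default DESeq2 factors (-1.90). miR172, which targets AP2 factors of flower and fruit, had 38 counts in pear (0.0349%), against a median of 0.0222% and 3.06% in spinach.

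The 4 families that act on auxin signalling held 0.519% of the counts in pear (95% CI 0.478 to 0.564), against a median of 3.41% in the other foods. Only tomato was lower, at 0.186%, and apple had 0.614%. The log2 fold over the median was -2.71, and -1.85 with MIR162 taken out. With single foods left out it ran from -3.58 to -2.22. Most of the sum was miR167, which targets auxin response factors ARF6 and ARF8. It had 352 counts in pear (0.323%), against 39.0% in walnut, 17.6% in almond, 8.87% in spinach, 0.858% in orange, 0.312% in apple, 0.204% in olive and 0.0982% in tomato. Pear was thus among 4 low foods, and the family was not called. Its log2 fold over the median was -1.41, and ran from -3.91 to -0.86 with single foods left out. miR160, which targets other auxin response factors, went the other way, with 111 counts in pear (0.102%) against 97 in walnut (0.247%) and shares of at most 0.0474% in the other 6 foods. miR390, which starts the TAS3 small RNAs that repress ARF genes, had 51 counts in pear, 0 in apple and 1642 in orange. miR393, which targets the TIR1 auxin receptors, had 52 counts in pear, 623 in apple and 554 in olive.

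Among the nutrient families, miR398 was the largest in pear. It targets copper/zinc superoxide dismutases and is made when copper is short. It had 3334 counts in pear, a share of 3.06% (95% CI 2.96 to 3.16), against 5.13% in orange, 2.89% in walnut, 0.80% in almond, 0.457% in spinach and 0.106% or less in tomato, apple and olive. Pear was below orange (95% CI 4.96 to 5.30), and its interval overlapped that of walnut (2.73 to 3.06). With MIR162 taken out, the pear share was 5.64% and the highest other share, that of orange, 5.18%. The fold over the median was 6.69, and its log2 ran from 2.28 to 3.44 with single foods left out. The copy behind this share was MIR398b (G4:19261810-19261934, - strand), with 2967 counts or 2.72% in pear. It had 204 counts in almond (0.358%), 126 in orange (0.188%), at most 7 in tomato, spinach and olive, and 0 in apple and walnut. MIR398b was not above the range in the deposited normalized reads, whose factor was 1.05 in almond and 29.4 in pear, and was above it under the other scalings tried.

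Of the phosphate families, miR399 targets the PHO2 mRNA and rises when phosphate is short. It had 324 counts in pear, a share of 0.297% (95% CI 0.266 to 0.331), against 0.184% in apple, 0.103% in tomato and at most 0.0754% in the other 5 foods. Pear was not above the range of the others under TMM, either kind of DESeq2 factors or the denominator without the 3 highest genes, and in the deposited normalized reads its log2 fold over the median was 1.95, just under the limit. miR2111, another family induced by low phosphate, had 21 counts in pear and at most 10 in any other food. One of its genes, MIR2111c (G4:5127105-5127182, - strand), had 13 counts in pear (95% CI of the count 6.92 to 22.2) and none elsewhere. The only other gene counted in pear alone was MIR6266a, with 1 count. miR827, which targets SPX-domain phosphate transporters, was at 0 counts in pear (exact upper limit of the share 0.00338%). It had 1344 counts in orange, 75 in olive, 74 in almond, 8 or 9 in tomato, spinach and walnut, and 1 in apple. With pear set to the floor of 3 counts, a share of 0.00275%, it was at 0.120 times the median of the others. miR395, which targets sulfate assimilation, held 0.0661% in pear (72 counts), near the middle of the foods.

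**Figure D2:**
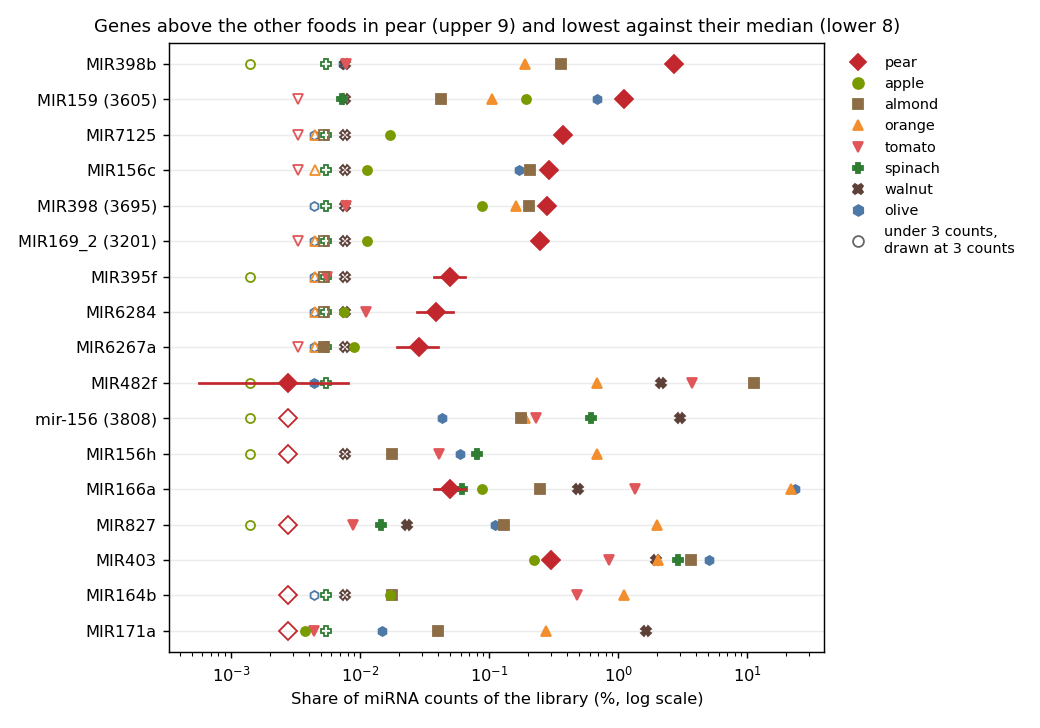
Share of the miRNA counts (percent, log scale) of 17 genes, with pear as red diamonds (bar: 95% interval) and the other foods as other symbols; 4-digit numbers are the last digits of the gene ID. In the upper 9 genes, from MIR398b to MIR6267a, pear lies above every other food, and in the lower 8, from MIR482f to MIR171a, it lies at or near the bottom.

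miR482, which targets the mRNAs of NLR immune receptors, held 7.18% of the pear counts, 99.9% of them on MIR482c. The 3 counts of MIR482f in pear stood against 6430 in almond, 3384 in tomato, 845 in walnut, 455 in orange, 3 in olive and 0 in apple and spinach.

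Several families known mainly from the Rosaceae set pear apart from its closest relative in the series. miR7122, which in Rosaceae targets mRNAs of pentatricopeptide repeat proteins, had 1644 counts in pear, a share of 1.51% (95% CI 1.44 to 1.58). Almond had 6932 counts (12.2%), orange 51, olive 12, apple 10, tomato 1, and spinach and walnut 0. With counts under 3 set to 3 counts, the median of the others was the floor of walnut, a share of 0.00764%. Pear was 197-fold above it, although almond was higher. All pear counts were on MIR7122a (G1:2253872-2254049, + strand), and MIR7122b, 9448 bp away, had counts in almond only.

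miR7125, reported in apple to target a cinnamoyl-CoA reductase mRNA of lignin synthesis, had a single gene (G4:6342132-6342256, + strand). Its share was 0.374% in pear (95% CI 0.339 to 0.412), against 0.0170% in apple, where it had 36 counts. Tomato had 2 counts, almond 1, and orange, spinach, walnut and olive 0. Pear was 22-fold above apple (95% CI 15.7 to 31.9), the next highest food. MIR7125 and MIR169_2 were the genes that stayed above all other foods under every scaling tried. MIR6284 had 42 counts in pear, against 16 in apple, 10 in tomato and 0 to 2 elsewhere. MIR6267a had 31 in pear, against 19 in apple, 3 in almond, 1 in olive and 0 elsewhere. MIR6282 had 16 in pear, against 2 in apple and 0 in the other 6 foods. The families numbered 6000 or above, apart from miR7122, together held 0.473% in pear, against 2.80% in almond and at most 0.0596% in the other 6 foods. Most of the pear sum was miR7125. In almond the sum came mostly from other families, which had few or no counts in pear. The largest were miR6281, with 331 counts in almond and 0 in pear, miR8130, with 301 and 2, and miR8126, with 280 and 3. Next came miR6293, with 182, and miR8123, with 126, each with 0 counts in pear.

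Altogether 82 genes had 0 counts in pear and at least 1 in another food, and 32 of these reached 10 counts somewhere. By share they were led by MIR482d, with 2139 counts in almond, MIR171f, with 962 in walnut, and MIR827. MIR319a, of the family that targets TCP factors of leaf and petal growth, was at 0 in pear and at 759 in apple. Of the 105 genes counted in pear, 19 had counts in all 7 other foods, and 26 rested on 1 or 2 counts. Counts this low cannot be told apart from reads carried over between libraries. Likewise, 0 counts in pear cannot be told apart from a pear sequence that differs from the peach copy. In the other foods, between 68 (walnut) and 123 genes (almond) had at least 1 count.

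The copy that took the reads of a family could be compared without regard to library scaling. Because reads of each species were placed on peach copies, differences in level between copies and differences in sequence from peach cannot be told apart. Of 18 families with at least 50 pear counts and 2 or more genes, 16 were led in pear by a copy that also led in another food. The remaining 2 were miR395 and miR393. MIR395f took 54 of 72 miR395 counts in pear and at most 6.10% in the 4 other foods with 20 or more counts, although the family has 15 annotated genes. MIR393a took 39 of 52 miR393 counts in pear and at most 48.0% in the 4 other foods with 20 or more counts of the family. Walnut and tomato, with 2 and 3 counts of the family, had 2 of them each on MIR393a.

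miR398 showed the sharpest contrast with apple. MIR398b took 89.0% of the miR398 counts in pear (95% CI 87.9 to 90.0), against 0 of 190 in apple, where the unnumbered copy MIR398 (ENSRNA050003695) took 97.4%. In orange, tomato, spinach and walnut 85.4% to 100% of the counts were on MIR398a, which had 1.86% in pear. Almond divided its counts over all 3 copies, with 44.7% on MIR398b.

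miR166 was carried in pear by MIR166b, with 57.0% of the family (95% CI 56.1 to 57.8), and by MIR166e, with 36.2%. In apple and almond the leading copy was MIR166d, with 51.1% and 55.2%, and it held 6.40% in pear. In orange and olive MIR166a led, with 96.0% and 56.0%, and it held 0.378% in pear. Tomato and spinach shared the leading MIR166b with pear, at 79.2% and 92.9%. MIR166a was accordingly among the lowest pear genes against the median (0.102 times), while the family as a whole was not low.

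In miR156, MIR156e took 76.5% of the counts in pear, close to 77.4% in almond, whereas apple split its counts between MIR156b (51.2%) and MIR156e (44.4%). Olive had 91.1% on MIR156b. The copy mir-156 (ENSRNA050003808), which led in walnut (84.3%) and tomato (77.4%), had 1 count in pear. In miR159 every food had the same leading copy, with 85.8% in pear. A second copy (ENSRNA050003605) took 9.98% in pear (95% CI 9.45 to 10.5), against 6.06% in olive, 2.12% in apple and at most 0.253% in the other 5 foods.

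**Figure D3:**
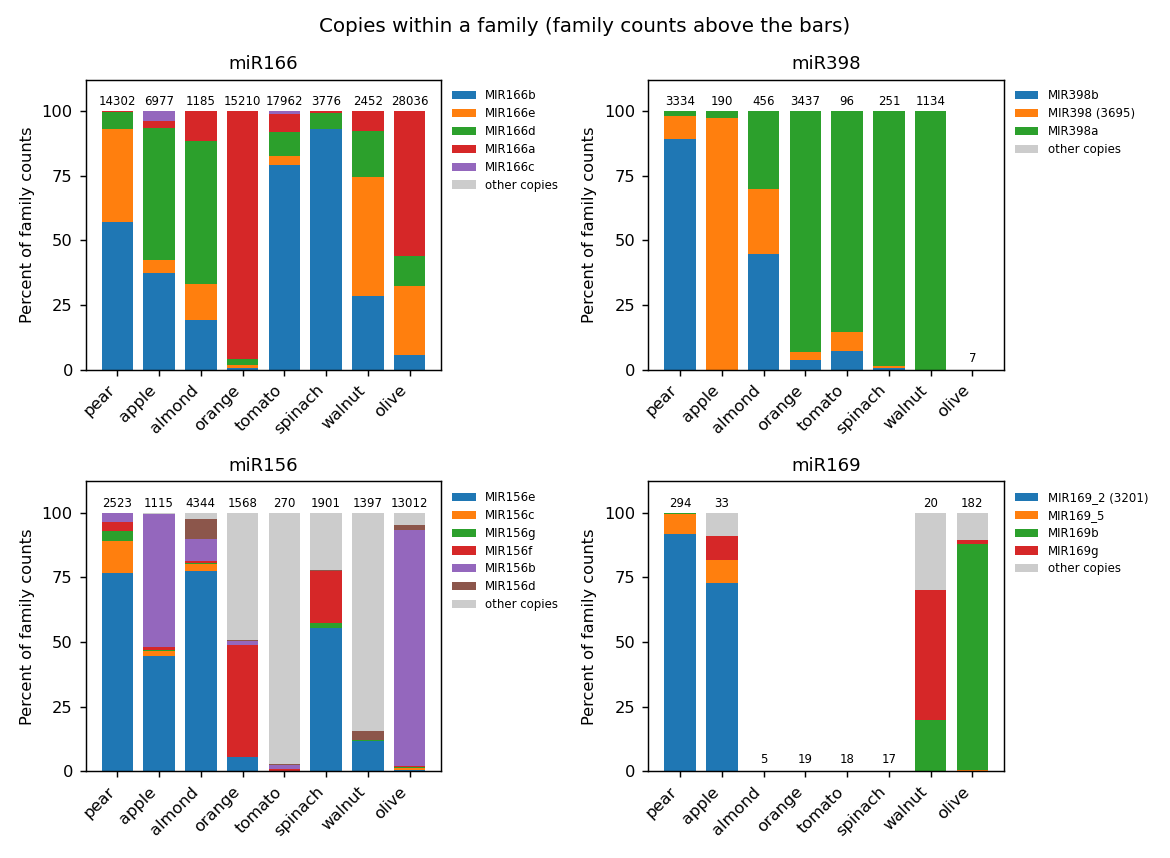
Percent of the counts of miR166, miR398, miR156 and miR169 on each peach gene copy, pear at the left of each panel and family counts above the bars. Foods with fewer than 20 family counts have no bar. For miR398, MIR398b makes up 89.0% in pear and 0% in apple.

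Apple is the nearest relative of pear among the foods, and almond belongs to the genus of the reference genome. Of 31 families with at least 10 counts in pear or apple, 22 had a higher share in pear than in apple with an interval above 1 (71.0%), and 8 a lower one (25.8%). A ratio of 4 or more was found for 12 of them (38.7%), not counting miR390, whose 51 counts in pear stood against 0 in apple (lower limit of the ratio 25.9). These were led by miR7122 at 320-fold (95% CI 173 to 668), miR398 at 34.1-fold (29.5 to 39.7) and miR394, which targets the F-box mRNA LCR, at 25.6-fold (11.9 to 65.4). The families at least 4-fold lower in pear than in apple (12.9%) were miR319, with 0 counts against 763, miR530 at 0.0543-fold (0.0325 to 0.0854), miR393 at 0.162-fold (0.120 to 0.216) and miR396 at 0.249-fold (0.244 to 0.255). miR167 was at 1.04-fold, with an interval of 0.908 to 1.18 that holds 1. With MIR162 taken out of every library, a comparison added after the values were seen, 23 of 30 families were higher in pear (76.7%) and 7 lower (23.3%). miR396 was then at 0.303-fold, short of the 4-fold limit, and miR482 was at 1.13-fold, against 0.933-fold with all counts. No other scaling was applied to these ratios, and the numbers of higher and lower families depend on it. The 3 highest genes held 63.9% of the counts in pear and 79.1% in apple, and the deposited factors were 29.4 and 241.

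Against almond, 15 of 46 families were higher in pear (32.6%) and 28 lower (60.9%). Reads of both foods were placed on peach, which is of the genus of almond. Differences in level and differences in sequence from peach cannot be told apart in these ratios either. The ratio was 108 for miR162 (95% CI 95.3 to 123), 79.3 for miR164 (lower limit 43.0) and 19.2 for miR396 (17 to 21.7). At the other end it was 0.0174 for miR535 (0.0153 to 0.0197) and 0.0184 for miR167 (0.0165 to 0.0204). miR1511 had 4 counts in pear and 2152 in almond. MIR162 took 45.7% of the counts in pear and 0.423% in almond, and with it taken out 16 of 45 families were higher in pear (35.6%) and 24 lower (53.3%). The ratio for miR396 was then 35.2 and that for miR535 0.0319. miR159 turned, from 0.669 with all counts to 1.23, while miR390, miR394 and miR530 were no longer lower beyond counting error and miR171, at 0.254, was short of the 4-fold limit. The next lists hold the families that entered both comparisons and differed beyond counting error with either denominator. Pear was above apple and below almond for miR7122, miR156, miR171, miR535, miR403 and miR395. It was above almond and below apple for miR396, miR168, miR164 and miR393, the last with 0 counts in almond. Other scalings were not applied to these lists. The smaller differences from apple, such as those of miR403, miR395, miR168 and miR164, can change side with the scaling.

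**Figure D4:**
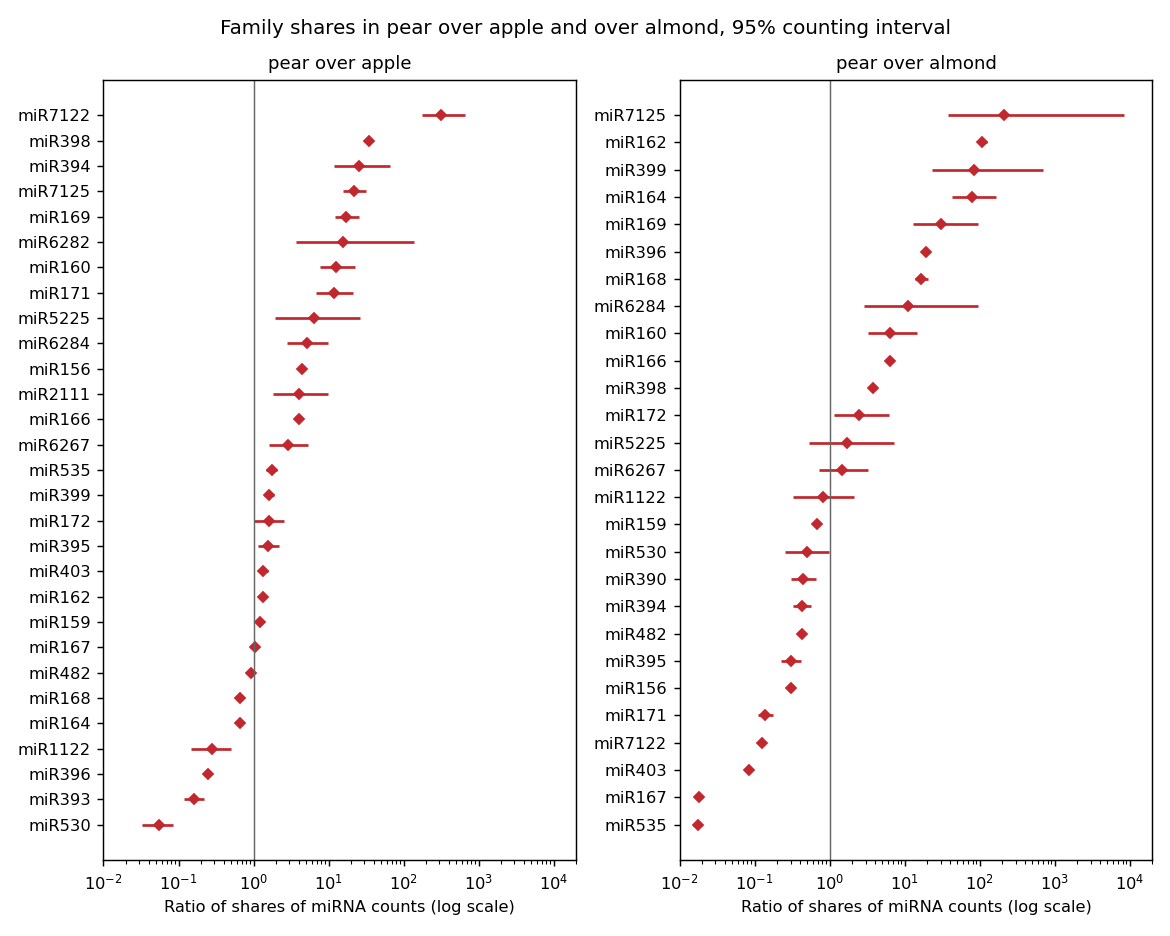
Ratio of the family share in pear over apple (left) and over almond (right), log scale, for families with at least 10 counts in pear and at least 1 in the other food, with 95% counting intervals as bars. The pear share exceeds the apple share most for miR7122 and the almond share most for miR7125, whose almond count is 1.

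The overlap of 2 profiles, the sum over genes of the smaller of the 2 shares, was 67.0% between pear and apple, the highest of all 28 pairs of foods. It was 59.9% between pear and tomato, 38.2% with spinach, 27.1% with olive, 25.8% with walnut, 22.4% with orange and 18.1% with almond. A large part of the overlap with apple and tomato was MIR162. With MIR162 taken out, pear overlapped more with tomato (57.6%) than with apple (55.3%). Without the 3 highest genes of each library the order turned again, with 48.7% for apple and 23.0% for tomato. The genes left out were not the same in both pairs. They were MIR162, MIR159 and MIR396 in pear and apple, and MIR162, MIR166b and MIR396 in tomato. Spearman's rho with pear over the genes with at least 10 counts in either food was 0.42 for apple (66 genes) and 0.00 for tomato (74 genes). It describes these libraries only, since genes are not replicates and low counts tie.

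**Figure D5:**
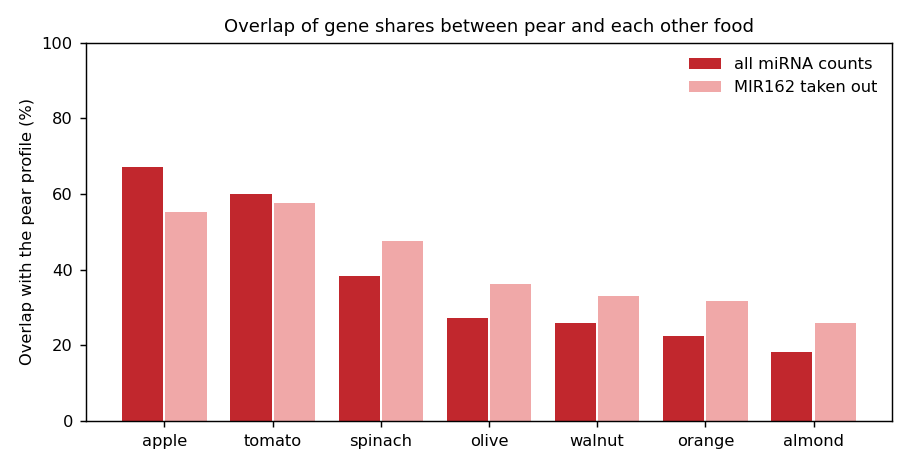
Overlap of the gene shares of pear with each other food (percent), with all miRNA counts (dark bars) and with MIR162 taken out (light bars). Apple is highest with all counts (67.0%) and tomato with MIR162 taken out (57.6%), and almond is lowest in both.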

How the data were processed

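Total RNA from the edible portion of each food (per the labels 0.5 g for almond and walnut and 0.1 g for the others) was made into NEBNext small RNA libraries and sequenced. After adapter removal with skewer, the authors placed reads 15 to 30 bases long on the peach genome (NCBIv2, miRBase 22) with ShortStack, allowing at most 2 mismatches in the seed area. The deposited counts are whole reads per miRNA gene from HTSeq, counted by strand, without normalization. The study's methods give another mass for walnut, and no correction for input was made. The deposited normalized signal is the count divided by 1 DESeq2 factor per library (largest relative deviation 1.4e-14). For these tools the versions were not given in the sources used here. How reads that matched several copies were counted is not stated.

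Shares, exact intervals and folds were computed in Python 3.11.15 with scipy 1.17.1, pandas 2.3.3 and numpy 2.4.6, and drawn with matplotlib 3.10.9. Scaling alternatives used R 4.3.3 with edgeR 4.0.16 (TMM) and DESeq2 1.42.0 (default and poscounts). Families are the number after MIR in the gene name. A gene or family entered with at least 10 counts in a food, counts under 3 were set to 3, and the fold limit was 4. The calculations were tested on simulated data. The text names the 20 highest pear genes, all pear genes above the range of the other foods, the 8 lowest against the median, genes counted in pear alone, and families of at least 10 counts by the same rules. Genes added after their values were seen are MIR482d, MIR171f, MIR319a, MIR6282, MIR7122b, MIR393a, MIR169b, MIR169_5, MIR398a and MIR156b. Members and lists were chosen with earlier results of these data known. Gene IDs matched none of an almond gene table (0), so names and coordinates are those of the deposited table. The qPCR, cell and human experiments were not used here.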

Additional observations from a re-analysis of the deposited data

Results flagged for a closer look

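In 4 of 30 families the pear share stood apart from the 7 other foods by Dixon's test over the 8 libraries at its 95% limit. The 30 families were those with at least 10 counts in pear, so a family could enter through its pear count alone. The 8 libraries are also of different species, so the flag only describes these shares and does not test them. These were miR7125 at 0.374% in pear and at most 0.0170% in another food, miR6284 at 0.0385% in pear and at most 0.0110%, miR2111 at 0.0193% in pear and at most 0.00472%, and miR6282 at 0.0147% in pear and at most 0.000943%. The last 3 rest on 42, 21 and 16 pear counts. By counting intervals, miR2111 and miR6282 were not above the range of the other foods, and miR6284 was not in the deposited normalized reads.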

How the results depend on the processing

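No paired analysis was possible because each food had 1 library. Genes at least 4-fold lower in pear numbered 12, and 5 with MIR162 taken out, 22 in the deposited normalized reads, 21 at a fold limit of 2 and 5 at a limit of 8. Genes above the range of the other foods numbered 10, and 17 with MIR162 taken out and 3 in normalized reads. Families at least 4-fold higher numbered 11, and 5 at a limit of 8. Families at least 4-fold lower numbered 3, and 1 with MIR162 taken out, 8 in normalized reads, 1 with default DESeq2 factors, 9 at a limit of 2 and 1 at a limit of 8. With 1 food left out they numbered 4 to 6 (5 without apple, almond, orange or olive, 6 without tomato). Families above the range numbered 4, and 8 with MIR162 taken out and 2 with TMM. The count of 105 detected genes became 79 at 3 counts, 58 at 10 counts and 86.4 on average with the library thinned to the smallest total. The overlap of pear with apple was 67.0%, and 55.3% with MIR162 taken out, 68.9% per family and 48.7% without the 3 highest genes. The median log2 fold of all tested genes was -1.55 in normalized reads (36 higher, 78 lower in pear), -0.30 with TMM (52 and 62), 0.13 with poscounts (60 and 54) and -0.05 with default DESeq2 factors (56 and 58). Under every scaling, 19 of the 25 higher genes and 5 of the 12 lower ones kept their call. The causes were not tested. Families under about 20 counts in pear are limited by depth.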
